A study of Rattus norvegicus with 20 samples.

Results

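Glutathione synthesis and oxidant defence were followed through 10 genes of rat nasal epithelium, taken by name as the probe sets whose annotation gives 1 of these symbols: Gclc, Gclm, Gpx2, Cat, Nqo1, Hmox1, Txnrd1, Prdx2, Prdx6 and Duox2. They are 10 of the 14217 genes named on the array and were read by 12 probe sets, since Gclc and Txnrd1 have a second one. The study collected epithelium by hand from the nose of untreated, genetically unmodified adult Sprague-Dawley rats, which the labels also call CD rats, and hybridised total RNA to Affymetrix Rat230_2 arrays, 1 sample per array. Olfactory and respiratory epithelium of males were read on 6 arrays each, olfactory epithelium of females on 2 and respiratory epithelium of females on 6. All rats were killed by a ketamine overdose at 11, 13 or 14 weeks, and every male group held all 3 ages, while the female olfactory arrays came from rats of 13 and 14 weeks. In all 13 animals were sampled for the 20 arrays (7 males and 6 females), and 5 of the males and 2 of the females gave both tissues. The question of the study was the normal expression profile of the tissues that meet inhaled chemicals first. Apart from the ketamine overdose no treatment was given, so the values are those of untreated rats.

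Glutathione is a small peptide made by glutamate-cysteine ligase, a pair of subunits (Gclc catalyses, Gclm regulates), followed by glutathione synthetase, and glutathione peroxidases such as Gpx2 spend it to turn peroxides into water or alcohols. Catalase (Cat) breaks down hydrogen peroxide without a partner, peroxiredoxins (Prdx2, Prdx6) reduce peroxides through a reactive cysteine, and thioredoxin reductase (Txnrd1) recharges thioredoxin with electrons from NADPH. Nqo1 reduces quinones and Hmox1 breaks down haem. Several of these genes are known targets of the transcription factor Nrf2, which binds the antioxidant response element. Duox2 works in the other direction: it is a membrane oxidase that releases hydrogen peroxide at the surface of epithelia, where peroxidases of airway fluid use it against microbes.

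The promoters are shown because several of these genes are best known as targets of Nrf2. The core of the antioxidant response element was searched as TGACNNNGC on both strands, in the stretch of 250 bases before to 50 bases after each gene's start (RefSeq, assembly GRCr8, by symbol). Of the 10 genes 8 had a promoter in that table, and Hmox1 and Prdx6 did not. The motif was present in 3 of the 8, Gclm, Gpx2 and Txnrd1, and in 12.1% of all 33469 promoters, or 13.1% of genes. Each match lies on the opposite strand, so the capitals below mark it as its reverse complement. In Gclm (chr2:213031885-213032184, plus strand) the match lies 172 to 164 bases before the start, in Gpx2 (chr6:101229984-101230283, minus strand) 13 to 5 bases before it, and in the second start of Txnrd1 (chr7:22755855-22756154, minus strand) 78 to 70 bases before it. The promoter of Gclc (chr8:87510226-87510525, plus strand), the partner subunit of Gclm, is given beside them and holds no match in this window.
Gclm: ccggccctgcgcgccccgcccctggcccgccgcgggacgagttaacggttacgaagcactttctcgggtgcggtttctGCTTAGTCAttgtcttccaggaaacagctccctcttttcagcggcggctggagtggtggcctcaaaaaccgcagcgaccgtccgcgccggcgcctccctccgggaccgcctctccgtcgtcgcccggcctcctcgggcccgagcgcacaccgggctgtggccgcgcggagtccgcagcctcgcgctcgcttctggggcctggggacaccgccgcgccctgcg
Gpx2: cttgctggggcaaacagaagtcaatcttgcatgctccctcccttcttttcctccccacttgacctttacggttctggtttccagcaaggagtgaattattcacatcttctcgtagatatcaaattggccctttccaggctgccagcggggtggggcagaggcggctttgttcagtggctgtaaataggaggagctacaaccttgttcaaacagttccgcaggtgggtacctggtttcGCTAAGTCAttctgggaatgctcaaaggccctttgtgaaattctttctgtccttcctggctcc
Txnrd1: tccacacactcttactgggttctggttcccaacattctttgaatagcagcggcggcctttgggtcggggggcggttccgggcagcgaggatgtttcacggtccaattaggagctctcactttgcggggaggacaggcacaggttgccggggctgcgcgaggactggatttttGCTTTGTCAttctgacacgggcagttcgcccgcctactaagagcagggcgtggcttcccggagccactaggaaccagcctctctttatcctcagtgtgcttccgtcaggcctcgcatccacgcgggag
Gclc: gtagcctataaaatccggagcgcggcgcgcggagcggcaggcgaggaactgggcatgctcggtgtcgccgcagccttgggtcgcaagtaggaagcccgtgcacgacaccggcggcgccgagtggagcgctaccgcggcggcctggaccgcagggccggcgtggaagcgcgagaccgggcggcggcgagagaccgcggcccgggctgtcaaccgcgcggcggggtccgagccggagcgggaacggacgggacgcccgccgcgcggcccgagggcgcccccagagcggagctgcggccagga
The windows of Cat, Nqo1, Prdx2 and Duox2 held no match either. A match is a run of letters and not a measured binding site, and a window without one says nothing of Nrf2. Gclm and Gpx2 were lower in olfactory epithelium (below) and Txnrd1 did not pass the test, so the genes with the motif did not share 1 pattern. Of 84 other measured list genes with a promoter, 18 (21.4%) held the motif, of which 1 was higher and 5 lower in male olfactory epithelium and 12 were not called. Over all named genes 14.0% were higher and 17.8% lower, and of all 108 measured list genes 14 were higher and 32 lower. Whether genes with the motif differ from the rest was not tested.

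The olfactory arrays carried the markers of their neurons: all 7 measured olfactory neuron markers were higher in olfactory epithelium in both sexes. Their summed signal was 63922 to 73479 in male olfactory and 2394 to 12048 in male respiratory arrays, and 76363 to 77000 in female olfactory and 3626 to 24958 in female respiratory arrays, so these markers were also read on respiratory arrays. In males leukocyte markers were lower in olfactory epithelium for 7 of 8 (summed signal 5149 to 10243 against 24763 to 48400 in respiratory), basal cell markers for 5 of 5 (3478 to 11217 against 22080 to 67467), squamous markers for 3 of 4, gland markers for 2 of 4, goblet and secretory markers for 4 of 8 (10100 to 24889 against 16424 to 49990) and endothelial markers for 3 of 5 with 1 higher. Markers of sustentacular cells, which support the olfactory neurons, were higher for 5 of 5 (64217 to 93116 against 7255 to 35760), and in females for 3 of 5. Ciliated cell markers hardly set the tissues apart, with 1 of 4 lower in males and 0 of 4 in females. Their summed signals overlapped in males (3786 to 5866 in olfactory against 4101 to 7875 in respiratory). Neutrophil markers were lower for 2 of 5 in males and 1 of 5 in females. No measured marker of these lists was at background on every array, their part in the results was not tested, and in bulk tissue fewer cells of a type and less RNA per cell cannot be told apart. The RNA integrity number was 8.2 to 8.8 on 5 male olfactory and 9.1 to 9.3 on 4 male respiratory arrays, and 8.3 on both female olfactory and 8.7 to 9.3 on the 6 female respiratory arrays. The ranges do not overlap in either sex, so RNA quality and tissue cannot be told apart. The arrays of male respiratory 7 and female respiratory 8 stood apart from their groups in several of the 10 genes, and results that rest on them are given with and without them. These 2 arrays were singled out after their values were seen. The labels name the animals, and p-values measure the spread between these rats.

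In male olfactory epithelium 6 of the 10 genes were lower than in male respiratory epithelium (Gclc, Gclm, Gpx2, Cat, Nqo1 and Duox2), 2 were higher (Prdx2 and Prdx6), and Hmox1 and Txnrd1 did not pass the test. Over all named genes 17.8% were lower and 14.0% higher by the same test, an adjusted p under 0.05 in limma. The median change of the 10 genes was -1.13 on the log2 scale. The 6 and 6 arrays did not overlap for 4 of the lower genes (Gclc, Gclm, Gpx2 and Duox2) and for 1 of the higher genes (Prdx6), where 10.2% of all named genes lay apart as lower and 7.54% as higher. When the RNA integrity number entered the fit as a covariate, on the 17 arrays that have one, Gpx2 alone of the 8 called genes kept its call in males (-2.90, adjusted p = 0.00445). The other 7 kept their direction and lost the call, with adjusted p of 0.0566 for Gclm, 0.0803 for Gclc, 0.151 for Cat, 0.339 for Duox2, 0.426 for Prdx6, 0.693 for Nqo1 and 0.751 for Prdx2. On the same 17 arrays without the covariate none of the 8 lost its call in males.

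**Figure D1:**
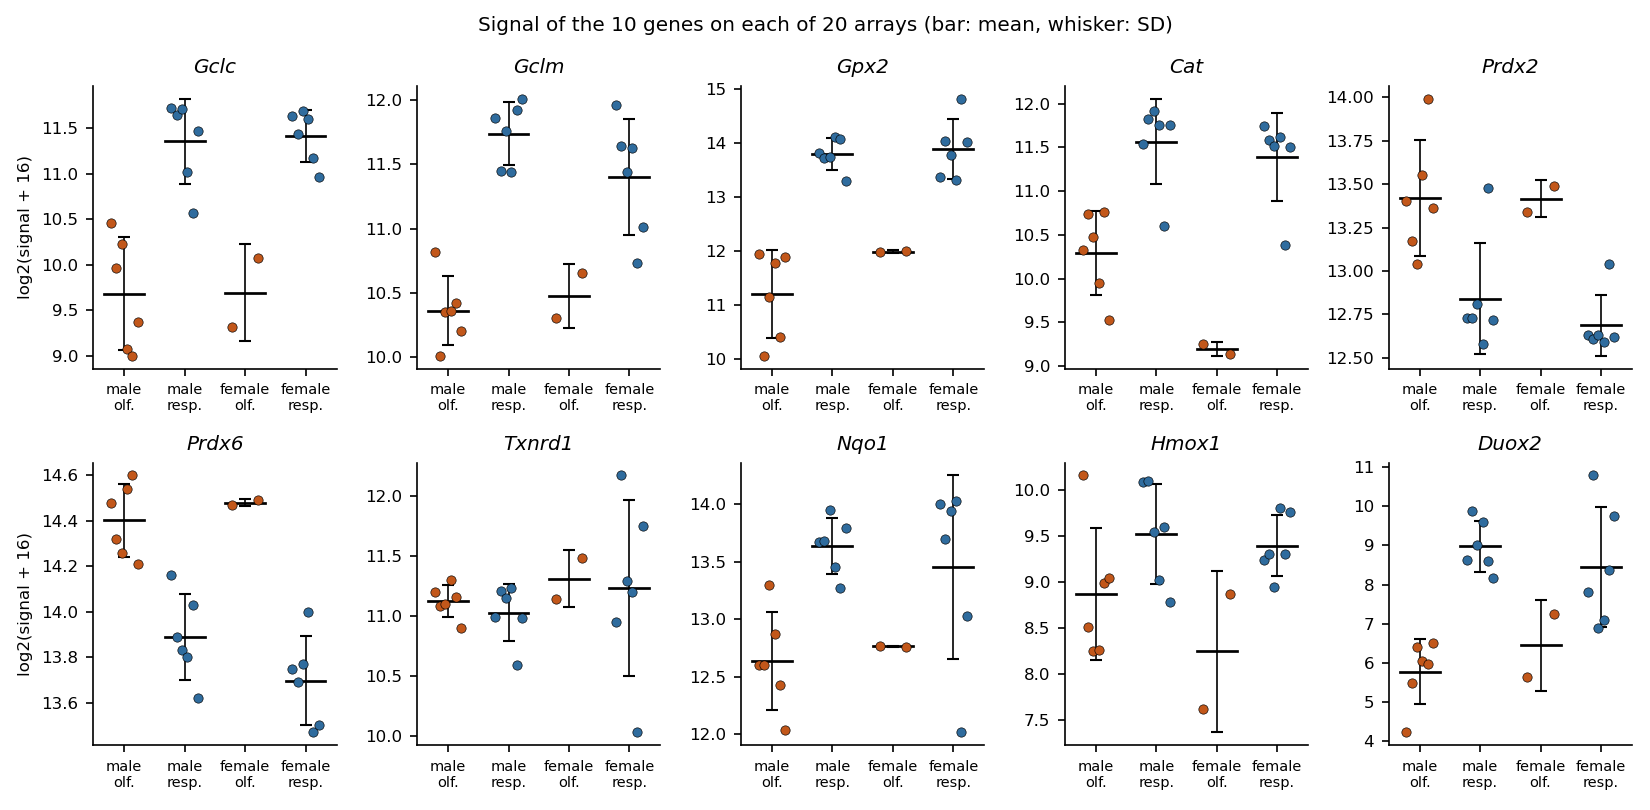
Signal of each of the 10 genes as log2(signal + 16), 1 panel per gene with its own axis, with olfactory (orange) left of respiratory (blue) arrays for males and then for females; each point is 1 array, the bar the mean and the whisker the SD. Gclc, Gclm, Gpx2 and Duox2 lay lower on every male olfactory array than on any male respiratory array, Prdx6 lay higher, and the 2 ranges of Txnrd1 overlapped (1890 to 2499 against 1521 to 2384).

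Both subunits of glutamate-cysteine ligase were lower in olfactory epithelium. The catalytic subunit Gclc had a signal of 497 to 1394 (median 816) on the male olfactory arrays, against 1507 to 3390 (median 3012) on the male respiratory arrays. Every olfactory array lay under every respiratory array, and Gclc was 3.20-fold lower (log2 change -1.68 ± 0.26, SE; adjusted p = 3.1e-05). Its second probe set gave -1.77 ± 0.29 (SE; adjusted p = 6.2e-05), so both readings of the gene moved alike. The regulatory subunit Gclm had a signal of 1012 to 1786 (median 1292) on male olfactory and 2759 to 4116 (median 3567) on male respiratory arrays. These groups were also apart, with Gclm 2.60-fold lower in olfactory epithelium (-1.38 ± 0.19, SE; adjusted p = 1.0e-05). In females Gclc read 624 and 1058 on the olfactory arrays and 1987 to 3295 on the respiratory arrays, and Gclm read 1244 and 1594 on the olfactory arrays and 1680 to 3980 on the respiratory arrays. Both were lower in female olfactory epithelium, Gclc 3.31-fold (-1.73 ± 0.37, SE; adjusted p = 0.00205) and Gclm 1.90-fold (-0.93 ± 0.27, SE; adjusted p = 0.0216). The female calls rest on 2 olfactory arrays: without female olfactory 6 the adjusted p was 0.101 for Gclc and 0.26 for Gclm, and without female olfactory 8 it was 0.0618 for Gclm.

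Of the enzymes that remove peroxide, Gpx2 and catalase were lower in olfactory epithelium. Gpx2, a glutathione peroxidase of epithelia, had a signal of 1061 to 3930 (median 2888) on the male olfactory arrays, against 10102 to 17730 (median 14014) on the male respiratory arrays. The highest olfactory array reached less than the lowest respiratory array, and Gpx2 was 6.00-fold lower (-2.59 ± 0.30, SE; adjusted p = 8.5e-07). The female olfactory arrays read 4018 and 4108 and the female respiratory arrays 10153 to 28921 (median 15360), a 3.73-fold lower level (-1.90 ± 0.43, SE; adjusted p = 0.00321, and 0.0547 without female olfactory 6). Catalase had a signal of 723 to 1718 (median 1333) on male olfactory and 1538 to 3862 (median 3458) on male respiratory arrays. The groups overlapped through 1 respiratory array, male respiratory 7 at 1538. Cat was 2.42-fold lower in male olfactory epithelium (-1.27 ± 0.26, SE; adjusted p = 0.000581). In females Cat read 546 and 592 on olfactory and 1317 to 3418 (median 2984) on respiratory arrays, with no overlap and a 4.59-fold lower olfactory level (-2.20 ± 0.36, SE; adjusted p = 0.000191). Without male respiratory 7 and female respiratory 8 the change of Cat was -1.47 in males and -2.40 in females. These 2 arrays had the lowest Cat signal of their groups, so a larger change without them follows from the choice.

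The peroxiredoxins Prdx2 and Prdx6 moved the other way, by less than 1 on the log2 scale. Prdx6, which reduces peroxides of phospholipids with glutathione as its partner, had a signal of 19001 to 24875 (median 21681) on male olfactory and 12583 to 18346 (median 14838) on male respiratory arrays. No male arrays overlapped, and Prdx6 was 1.43-fold higher in olfactory epithelium (0.52 ± 0.16, SE; adjusted p = 0.0177). With each animal as a block the change was 0.50 with an adjusted p of 0.0578, and without male respiratory 8 the adjusted p was 0.0523. Prdx2, a thioredoxin-dependent peroxiredoxin that is also abundant in red blood cells, had a signal of 8414 to 16290 (median 10643) on male olfactory and 6109 to 11387 (median 6772) on male respiratory arrays. The overlap came from male respiratory 7 at 11387, above 4 of the 6 olfactory arrays. Prdx2 was 1.49-fold higher in male olfactory epithelium (0.58 ± 0.18, SE; adjusted p = 0.0199), with an adjusted p of 0.0563 without male olfactory 7 and 0.0536 without male respiratory 4. Leaving out male respiratory 7 and female respiratory 8 gave 0.71 in males (adjusted p = 0.000699) and 0.80 in females (adjusted p = 0.00509). These 2 arrays had the highest Prdx2 signal of their groups. A larger change and a smaller p without them follow from that choice and are no check of the result. In females Prdx6 read 22722 and 23017 on olfactory and 11300 to 16364 on respiratory arrays, and was 1.72-fold higher (0.79 ± 0.22, SE; adjusted p = 0.0163). Prdx2 read 10381 and 11495 on female olfactory and 6142 to 8405 on female respiratory arrays, and was 1.66-fold higher (0.73 ± 0.25, SE; adjusted p = 0.049). Neither female group overlapped, and both calls were lost without either of the female olfactory arrays (adjusted p of 0.125 and 0.109 for Prdx6, and 0.183 and 0.246 for Prdx2). The female call of Prdx2 lies at the threshold and held in 12 of 30 alternatives.

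Cat and Prdx2 set the same 2 respiratory arrays apart. Male respiratory 7 and female respiratory 8 had the lowest Cat signal of their groups (1538 and 1317) and the highest Prdx2 signal (11387 and 8405). Haemoglobin beta (Hbb) was also highest on them within their groups, at 42882 and 58194. Hbb is among the 4 measured erythrocyte markers, and the levels of the others on these arrays are not given here. Across males erythrocyte markers were lower in olfactory epithelium for 2 of 4 measured. The part of blood in these levels was not tested.

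**Figure D2:**
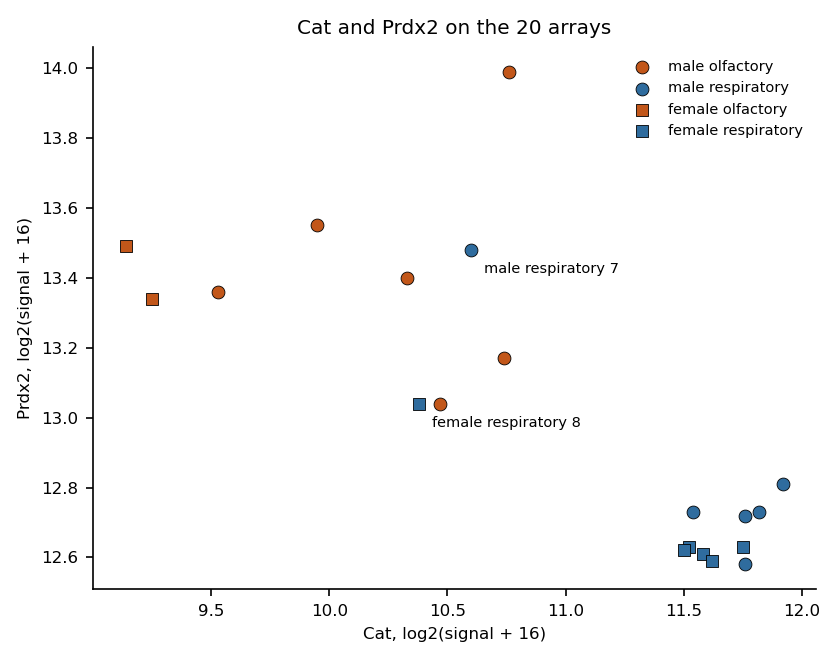
Catalase (horizontal) against Prdx2 (vertical) as log2(signal + 16) on each of the 20 arrays; circles are male and squares female, orange olfactory and blue respiratory. Male respiratory 7 and female respiratory 8, named in the plot, lie among the olfactory arrays for these 2 genes. The other 10 respiratory arrays lie close together at high Cat and low Prdx2. Other genes gave other places. Gpx2 on the 2 named arrays (17356 and 28921) lay above every olfactory array, and Nqo1 on female respiratory 8 (4130) lay under every one.

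Of the remaining defence genes Nqo1 was lower, and Txnrd1 and Hmox1 did not pass the test. Nqo1, which reduces quinones in a single 2-electron step, had a signal of 4191 to 10036 (median 6186) on male olfactory and 9892 to 15862 (median 13068) on male respiratory arrays. The groups overlapped through 1 olfactory array at 10036, and Nqo1 was 2.00-fold lower (-1.0 ± 0.28, SE; adjusted p = 0.0105). The female olfactory arrays read 6941 and 6981 for Nqo1 and the female respiratory arrays 4130 to 16769 (median 14469), a change of -0.69 ± 0.40 (SE; adjusted p = 0.252). The lowest female respiratory array was female respiratory 8, and without it the female change was -0.97 (adjusted p = 0.0186). A larger change follows from leaving out the lowest respiratory array and is no check of the result. Hmox1, which opens the haem ring, had a signal of 289 to 1131 (median 421) on male olfactory and 426 to 1080 (median 744) on male respiratory arrays. The highest array of all was an olfactory one, and the male change of -0.65 ± 0.31 (SE) had an adjusted p of 0.131. With each animal as a block the change of Hmox1 in males was -0.83 (adjusted p = 0.0226), and without male olfactory 1 it was -0.91 (adjusted p = 0.0181). Male olfactory 1 was that highest array (1131), so a larger change without it follows from the choice. In females Hmox1 read 183 and 453 on olfactory and 477 to 882 on respiratory arrays, which do not overlap, with a change of -1.14 ± 0.43 (SE; adjusted p = 0.0696). It was -0.52 without female olfactory 6 (adjusted p = 0.657) and -1.76 without female olfactory 8 (adjusted p = 0.0457), and passed without male olfactory 1 (adjusted p = 0.0352). Txnrd1 had a signal of 1890 to 2499 (median 2224) on male olfactory and 1521 to 2384 (median 2138) on male respiratory arrays. These ranges overlap over most of their length, and the change was 0.10 ± 0.24 (SE; adjusted p = 0.825), with -0.02 ± 0.27 by the second probe set. The female change of Txnrd1 was 0.08 ± 0.34 (SE; adjusted p = 0.904), and the female respiratory arrays ran from 1033 to 4583 around olfactory values of 2241 and 2843.

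Duox2, the source of peroxide, had the largest change among the 10 genes in males. Its signal was 2.81 to 74.7 (median 49.0) on male olfactory and 275 to 923 (median 440) on male respiratory arrays. On 3 of the 6 male olfactory arrays it was not above background, which was set on each array where 95% of 27 bacterial controls with no target lay lower, while it was above background on all 6 male respiratory arrays. The groups lay far apart, and the fitted change was -3.20 ± 0.55 (SE; adjusted p = 0.000108). With the olfactory values raised to background where they fell under it, the group mean of Duox2 was at least 7.66-fold lower in male olfactory epithelium. This bound allows for background only and not for the spread between arrays. In females it read 33.5 and 137 on olfactory arrays, 1 of them not above background, and 103 to 1753 (median 260) on respiratory arrays. These groups overlapped, and the change of -2.01 ± 0.78 (SE) had an adjusted p of 0.0764. On leaving out 1 array the female change ran between -2.82 without female olfactory 8 and -1.19 without female olfactory 6. It passed in limma without female respiratory 6 (adjusted p = 0.0398) or female respiratory 7 (adjusted p = 0.0452). These 2 arrays had the lowest Duox2 signal of their group (103 and 121). A larger change without either follows from that choice and is no check of the result. Leukocyte, basal, squamous, gland, and goblet and secretory markers were lower in male olfactory epithelium in the numbers given above. In females they were lower for 5 of 8, 2 of 5, 1 of 4, 1 of 4 and 3 of 8, in the same order. Their part in the level of Duox2 was not tested.

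**Figure D3:**
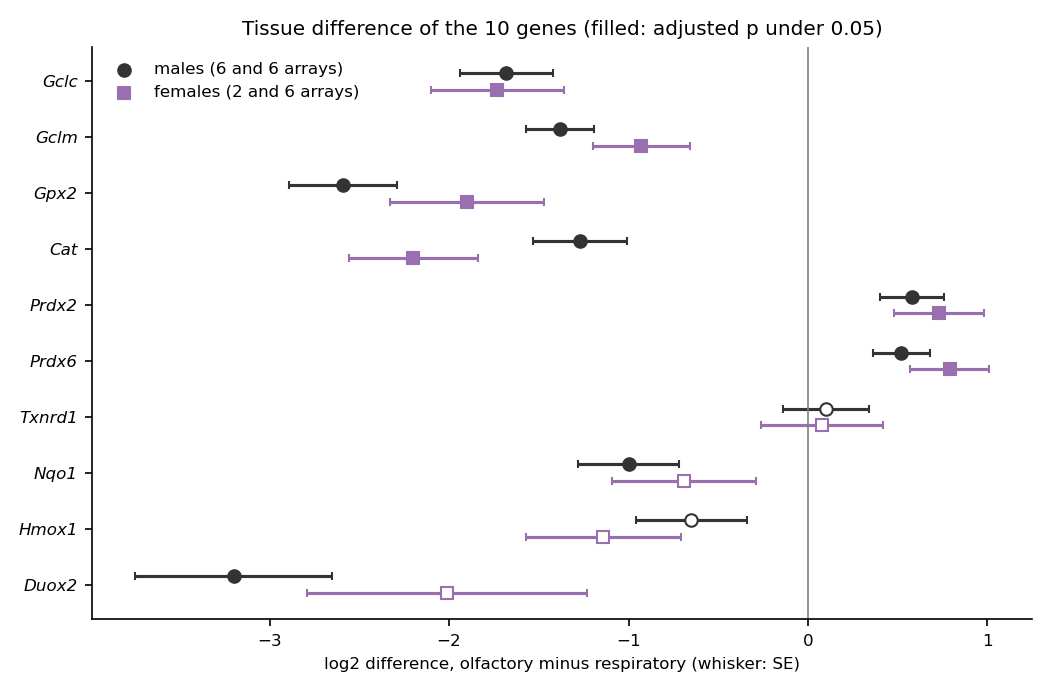
Change of each gene between tissues as the log2 difference of olfactory minus respiratory group means, circles for males (6 and 6 arrays) and squares for females (2 and 6 arrays), with whiskers of 1 SE; filled symbols passed the test. Duox2 and Gpx2 lie farthest to the left in males, Cat in females at -2.20, and Prdx2 and Prdx6 lie to the right of 0 in both sexes.

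In females 4 of the 10 genes were lower in olfactory epithelium (Gclc, Gclm, Gpx2 and Cat) and 2 were higher (Prdx2 and Prdx6), where 11.6% of all named genes were lower and 10.9% higher. The median change of the 10 was -1.03. The share of all named genes whose female olfactory and respiratory arrays lie apart is not given here. Non-overlap of the female groups is therefore a description and no test. The test of the difference between the sexes in this change (female minus male) called none of the 10, and 0 of all named genes (0%), with an unadjusted p under 0.05 for 1 of the 10, Cat. The tissue change of Cat was -2.20 in females and -1.27 in males, a difference of -0.93 ± 0.44 (SE; unadjusted p = 0.0471 and adjusted p = 0.924 in limma's fit).

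Set directly against each other within a tissue, females and males did not differ by the test in any of the 10 genes. In respiratory epithelium 0 of the 10 were called by limma and 0 had an unadjusted p under 0.05 (0.0141% of all named genes were called), and the differences ran between -0.53 for Duox2 and 0.21 for Txnrd1. The exact permutation test over the 12 respiratory arrays gave two-sided p-values of 0.117 and above. In olfactory epithelium 0 of the 10 were called (0.0211% of all named genes were), and Cat was the 1 gene with an unadjusted p under 0.05. Cat read 546 and 592 on the female olfactory arrays and 723 to 1718 on the male olfactory arrays, with no overlap and a difference of -1.10 ± 0.36 (SE; adjusted p = 0.716 in limma). Gpx2 also lay apart in olfactory epithelium, at 4018 and 4108 in females and 1061 to 3930 in males (0.78 ± 0.43, SE; adjusted p = 0.969 in limma). Female and male arrays overlapped in both tissues for the other 8 genes. The share of all named genes whose female and male olfactory arrays lie apart is not given here. With so few female olfactory arrays, lying apart does not by itself show a difference between the sexes for Cat or Gpx2. Ordered by mean log2 signal, both respiratory groups stood above both olfactory groups for Gclc, Gclm, Gpx2, Cat, Nqo1, Hmox1 and Duox2, and both olfactory groups stood above for Prdx2 and Prdx6. Txnrd1 gave no order by tissue, with means of 11.31 in female olfactory, 11.23 in female respiratory, 11.12 in male olfactory and 11.02 in male respiratory epithelium.

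The 7 rats with both tissues allowed the change to be read within an animal. Their arrays are part of the group comparisons above, so the counts describe the same data and are no further test. The share of all named genes that go 1 way in 7 of 7 rats is not given here. Gclc, Gclm, Gpx2 and Duox2 were lower in the olfactory sample of 7 of 7 rats, and Prdx2 and Prdx6 were higher in 7 of 7. Cat, Nqo1 and Hmox1 were lower in 6 of 7 each, and the rat that did not follow differed each time: male 7 for Cat (0.16), female 8 for Nqo1 (0.75) and male 1 for Hmox1 (0.08). Within rats the log2 difference of Duox2 ran between -4.41 and -1.11 (median -2.61), that of Gpx2 between -3.67 and -1.81 (median -2.57) and that of Gclc between -2.37 and -1.11 (median -1.57). Gclm was lower by as little as 0.08 in female 8, whose respiratory array stood apart. Txnrd1 was higher in the olfactory sample of 4 rats and lower in 3, with differences between -0.15 and 1.45.

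**Figure D4:**
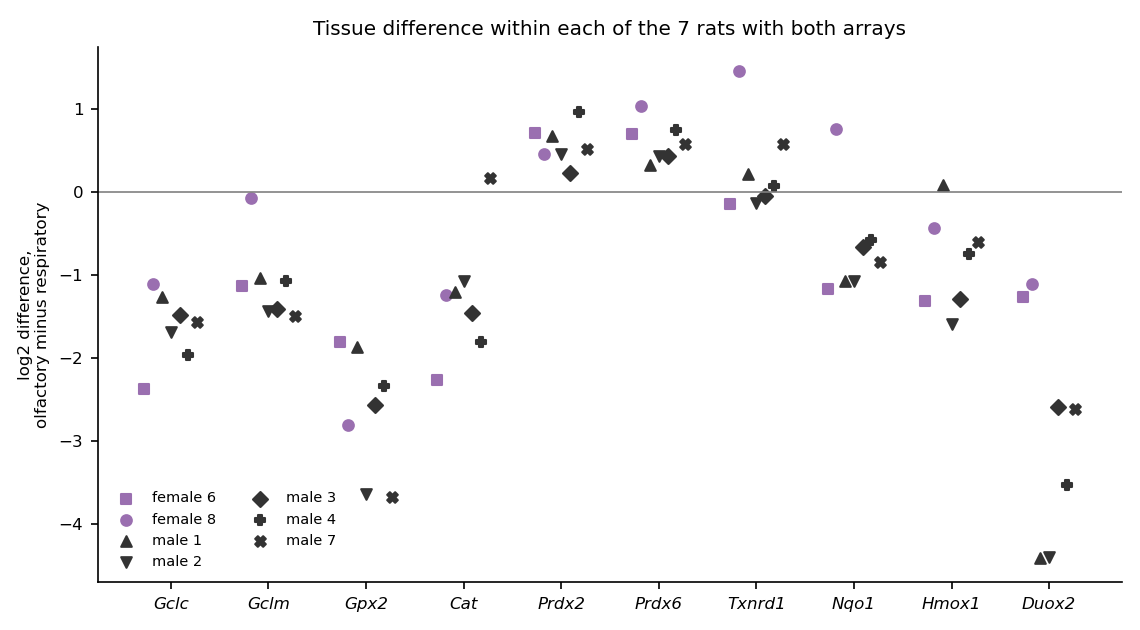
Log2 difference of the olfactory minus the respiratory array of the same rat, for each of the 10 genes (horizontal) and each of the 7 rats with both arrays (symbols, black for males and purple for females). All 7 rats lie under 0 for Gclc, Gclm, Gpx2 and Duox2 and over 0 for Prdx2 and Prdx6, and 1 rat lies on the other side for Cat, Nqo1 and Hmox1.

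The wider systems were read through 8 gene lists with 108 measured genes, the 10 included, of which 14 rose above and 32 fell under the respiratory level in male olfactory epithelium, where 14.0% of all named genes were higher and 17.8% lower, with a median change of -0.12 against -0.05 over all named genes. Genes of glutathione synthesis and turnover were split: 3 of 21 measured were higher and 8 lower, with a median change of 0.09. Beside Gclc and Gclm the largest falls were those of Anpep, aminopeptidase N, which splits the cysteinyl-glycine left from glutathione outside the cell (-2.07; adjusted p = 1.0e-06), and Ggt5, a further member of the gamma-glutamyltransferase family (-1.52; adjusted p = 0.00044). Higher were Ggt7, of the same family (2.44; adjusted p = 1.9e-06), Cbs, which starts the route from homocysteine to cysteine (1.66; adjusted p = 0.00025), and Lap3, a leucine aminopeptidase (1.13; adjusted p = 0.00633). Ggt7 read 1998 to 4914 on male olfactory and 395 to 1027 on male respiratory arrays, with no overlap. Glutathione synthetase (Gss), which completes the peptide that glutamate-cysteine ligase starts, was not called (0.38 ± 0.18, SE; adjusted p = 0.142, and 0.0345 without male respiratory 7 and female respiratory 8). Glutathione reductase (Gsr), which recycles the oxidised form, gave -0.82 ± 0.31 (SE; adjusted p = 0.0549, 0.00336 with each animal as a block and 0.0291 without male olfactory 7).

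Of 13 measured genes that remove peroxide 4 were higher and 4 lower, with a median of -0.09, where 14.0% of all named genes were higher and 17.8% lower. Gpx6, a glutathione peroxidase known from the olfactory mucosa, read 20415 to 30586 on male olfactory and 4522 to 17490 on male respiratory arrays and was higher (1.55; adjusted p = 0.000457), as was Prdx3, the mitochondrial peroxiredoxin (0.55; adjusted p = 0.0163). Gpx3, the secreted glutathione peroxidase, was lower (-1.37; adjusted p = 2.5e-05), and so was Gpx1, the cytosolic one (-1.12; adjusted p = 0.00153). The glutathione peroxidases did not move as 1 group: Gpx1, Gpx2 and Gpx3 were lower and Gpx6 was higher. Nor did all peroxiredoxins rise, since Prdx4 (-0.09, adjusted p = 0.874 in limma) and Prdx5 (-0.37, adjusted p = 0.34 in limma) were not called. Of 19 genes of the thioredoxin and glutaredoxin systems 3 were higher and 3 lower (median 0.04), counts that lie near the shares of all named genes. The higher ones were all methionine sulfoxide reductases, enzymes that repair oxidised methionine: Msrb2 (1.23; adjusted p = 0.000446), Msrb3 (1.16; adjusted p = 0.000493) and Msra (0.98; adjusted p = 0.0343, and 0.0504 with each animal as a block). The call of Msra was lost without any 1 of 7 male arrays, with adjusted p of up to 0.101 without male olfactory 7. The lower ones were Glrx, a glutaredoxin (-2.54; adjusted p = 5.6e-06), Txnip, an inhibitor of thioredoxin (-1.0; adjusted p = 0.00107), and Msrb1, a further methionine sulfoxide reductase (-0.71; adjusted p = 0.0103).

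Among 13 genes for superoxide, metals and haem 2 were higher and 4 lower, while the median of the list was 0.46. Over all named genes, against which the counts of this paragraph stand, 14.0% were higher and 17.8% lower. Mt3, a metallothionein of neural tissue (2.55; adjusted p = 2.2e-06), and Blvrb, a flavin and biliverdin reductase (1.62; adjusted p = 2.0e-05), were higher. Lower were Cp, ceruloplasmin, which oxidises iron (-2.22; adjusted p = 2.8e-07), Blvra, the biliverdin reductase that acts after haem oxygenase (-1.31; adjusted p = 7.1e-06), Slc40a1, the iron exporter (-1.08; adjusted p = 0.000204), and Sod2, the mitochondrial superoxide dismutase (-0.78; adjusted p = 0.0205). Cytosolic Sod1 was not called (0.46; adjusted p = 0.104), but it was after quantile normalization (0.67; adjusted p = 0.000123) and without male respiratory 7 (0.57; adjusted p = 0.0381). Of 10 genes for NADPH supply and quinone reduction 4 were lower and 0 higher (median -0.70). With Nqo1 these were Nnt, the mitochondrial transhydrogenase (-1.55; adjusted p = 1.1e-05), Idh1, cytosolic isocitrate dehydrogenase (-0.94; adjusted p = 0.00105), and Nadk, which makes NADP (-0.89; adjusted p = 0.0116). None of the 10 measured Nrf2 regulators was called. Nrf2 itself (Nfe2l2) gave 0.23 ± 0.25 (SE; adjusted p = 0.548) and its inhibitor Keap1 0.32 ± 0.22 (SE; adjusted p = 0.319).

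The list of oxidant sources had the largest share of lower genes of the 8 lists, 9 of 17 measured with 1 higher and a median of -1.35. Over all named genes 17.8% were lower and 14.0% higher. Beside Duox2 the largest falls by fitted change were those of Xdh, xanthine dehydrogenase (-2.36, adjusted p = 1.1e-06), Rac2, a small GTPase of the phagocyte oxidase (-2.13, adjusted p = 0.000359), and Noxo1, an organiser of the Nox1 oxidase (adjusted p = 0.00109). Noxo1 was not above background on 5 of the 6 male olfactory arrays, so its place among the largest falls rests on values at background. Its group mean was at least 2.80-fold lower there with those arrays raised to background, a bound that leaves out the spread between arrays. Xdh read 150 to 449 on male olfactory and 1222 to 2742 on male respiratory arrays. Cybb, the catalytic subunit of the phagocyte oxidase, and Duoxa1, a maturation factor of the dual oxidases, are named here after their values were seen. Cybb changed by -2.12 (adjusted p = 3.5e-05). Duoxa1 was not above background on 5 of the 6 male olfactory arrays and was at least 2.59-fold lower by the same bound (adjusted p = 0.000138, and 0.0733 in males of 11 weeks with both tissues). Rac2 and Cybb are genes of leukocytes, whose markers were lower on the same arrays. The higher gene was Maob, a monoamine oxidase (1.46; adjusted p = 0.000612). Of 5 measured genes for the use of peroxide 1 was higher, the iodide transporter Slc5a5 (0.81; adjusted p = 0.0443, and 0.177 with each animal as a block). The call of Slc5a5 held in 20 of 32 alternatives, and its change was 0.66 without male olfactory 7 (adjusted p = 0.115) and 0.09 in males of 11 weeks (adjusted p = 0.895). Lactoperoxidase (Lpo), the airway enzyme that uses the peroxide of Duox2, was at or under background on 4 of 6 male olfactory and 4 of 6 male respiratory arrays and was not called (adjusted p = 0.664). Duox1, Duoxa2 and Prdx1 were not analysed here. When the RNA integrity number entered the fit, 14 of the called genes named from the lists lost their call in males: Lap3, Ggt5, Gpx6, Prdx3, Msra, Txnip, Blvrb, Sod2, Idh1, Nadk, Maob, Noxo1, Duoxa1 and Slc5a5. Prdx3 and Sod2 lost theirs on the same 17 arrays without the covariate as well (adjusted p = 0.0863 and 0.0505). The other called genes named from the lists kept theirs, among them Anpep, Ggt7, Gpx1, Gpx3, Glrx, Mt3, Cp, Nnt, Xdh, Rac2 and Cybb.

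**Figure D5:**
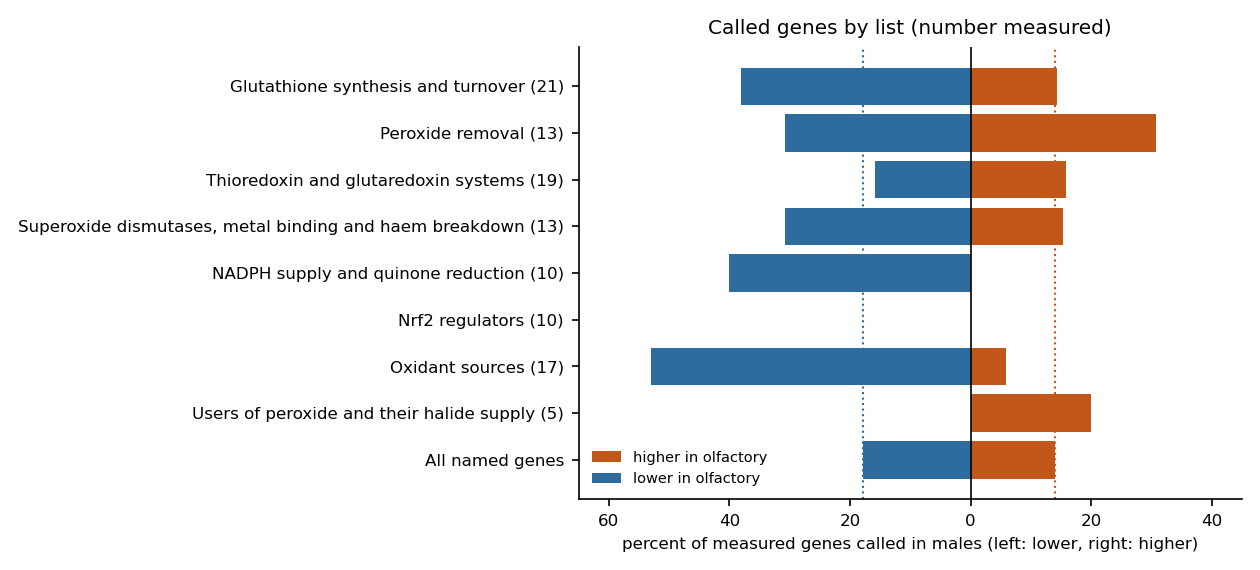
Share of the measured genes of each list that were called in males, as percent, lower in olfactory epithelium to the left and higher to the right; the number measured stands in brackets and dotted lines mark all named genes (17.8% lower, 14.0% higher). Oxidant sources reach farthest to the left, peroxide removal farthest to the right, and the Nrf2 regulators have no bar.

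Whether the source of peroxide and the enzymes that remove it varied together was read across the 12 respiratory arrays, where Duox2 was above background on every array. Of 19 relations computed in this family (Duox2 or the olfactory neuron marker Omp against each of the other genes) 0 passed a Benjamini-Hochberg adjusted permutation p under 0.05, and none passed within either sex alone. Duox2 and Txnrd1 gave Pearson's r = 0.49 and Spearman's rho = 0.45 (n = 12; permutation p = 0.104 and 0.141; adjusted 0.768 and 0.67), and r = 0.39 without the 2 arrays farthest in Duox2. Within the 6 female arrays r was 0.55, and -0.94 without the 2 farthest, so it rests on those 2; within the 6 male arrays it was 0.66, and 0.30 without the 2 farthest. Neither sex passed. Duox2 and Gpx2 gave r = 0.36 and rho = 0.39 (permutation p = 0.25 and 0.209; adjusted 0.768 and 0.762). Without male respiratory 7 and female respiratory 8, again with 0 of 19 passing, r over the other 10 arrays was 0.69 for Gpx2 (permutation p = 0.0297), 0.63 for Txnrd1 (permutation p = 0.0475) and -0.62 for Nqo1 (permutation p = 0.0488) against Duox2, each with an adjusted p of 0.232. Over all 12 Duox2 and Nqo1 gave r = -0.21, so these values depend on the 2 arrays. Duox2 and Gclm gave r = -0.18 and rho = -0.22 over all 12 (permutation p = 0.587 and 0.484; adjusted 0.768 and 0.762), with -0.18 within females and -0.98 within males (exact p = 0.00278; adjusted 0.0528), so the sexes gave different values and neither passed. Omp, which reads the olfactory RNA in a respiratory sample, and Duox2 gave r = -0.66 and rho = -0.62 (permutation p = 0.021 and 0.0374; adjusted 0.399 and 0.67), r = -0.47 without the 2 arrays farthest in Omp, -0.76 within females and -0.49 within males.

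As a description over all 20 arrays, which share the difference between tissues, Gclc correlated with Gclm at r = 0.84, Gpx2 with Duox2 at 0.78 and Prdx2 with Prdx6 at 0.79, while Gclc and Prdx2 gave -0.87. The named genes most alike to each of the 10 by Pearson's r over the 20 arrays were Drc3 for Gclc (0.96), Elapor1 and Aldh3a1 for Gclm (0.95 each), S100a11 for Gpx2 (0.97) and Pdcd4 for Cat (0.98). They were Fam171a1 for Nqo1 (0.93), Kcnmb4 for Prdx2 (0.94), Qdpr for Prdx6 (0.96) and Mxd1 for Duox2 (0.95). Hmox1 and Txnrd1 had no gene as close, with Ndrg1 at 0.83 for Hmox1 and Gadd45a at 0.75 for Txnrd1.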

How the data were processed

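The deposited files hold intensity values, a linear signal per probe set and array, made by the authors with GCOS 1.0 per the submitters' processing notes; for its algorithm and scaling, and for steps after it, the sources used here give nothing. After trimming 2% at each end the mean lay at 500 on every array, so the deposited scaling was kept. The files list 31099 probe sets, and 31042 were tested after removal of 57 controls. The annotation gave 1 symbol to 20826 probe sets, several to 436 and none used here to 9780. Where a gene had several probe sets, that with the highest mean log2 signal stood for it. Signals were taken to log2 after adding 16, so changes of dim genes are understated. limma 3.58.1 in R 4.3.3 fitted 4 group means over all 20 arrays with variances that follow intensity. The tissues were compared (olfactory minus respiratory) within males and within females, the sexes (female minus male) within either tissue, and the tissue change of females with that of males, with two-sided p adjusted by Benjamini-Hochberg over all 31042 and called under 0.05. The code was tested on simulated data.

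The labels give the individual, so the 7 rats with both tissues are true pairs; deviations from the group means correlated by -0.184 to 0.246 within them and the consensus correlation was 0.039. The animal was not a term of the model and was tried as a block. The members, gene lists and tests were chosen with earlier results of these data known. All 10 members are named, with up to 4 called genes per direction of each list and a few fixed ones, and the 3 most alike named genes of each member were sought without placeholder symbols (LOC, RGD). The array maker's probe sets have no read depth, so precision is limited by how many arrays there are. Permutation tests used all 924 regroupings of 6 and 6 arrays (smallest p 0.00216) or 100000 resamples. Alternatives were other added constants, quantile normalization, a filter on dim probe sets, no intensity trend, the mean of all probe sets of a gene, animal blocks, rats of 11 weeks, the RNA integrity number and leaving out arrays.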

Additional observations from a re-analysis of the deposited data

Results flagged for a closer look

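Cat and Prdx2 each had 1 array far from the other 5 in both respiratory groups, by the gap to the nearest array as a share of the group's range. For Cat these were male respiratory 7 at a signal of 1538 (share 0.71) and female respiratory 8 at 1317 (share 0.82), both the lowest of their groups. For Prdx2 they were the same arrays, male respiratory 7 at 11387 (share 0.74) and female respiratory 8 at 8405 (share 0.91), both the highest. All 4 shares are above Dixon's 95% critical value for 6 arrays. Of 36 groups of the 12 probe sets tested this way 4 passed, and chance passes about 1 in 20. The tissue changes of Cat and Prdx2 without both arrays stand beside those results above.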

How the results depend on the processing

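The RNA integrity number had the largest effect: with it as a covariate, which drops the 3 arrays without one, the members called lower in males numbered 1 and those higher 0, against 6 and 2, and in females 1 and 0, against 4 and 2. All probe sets called then numbered 2347 in males, against 7824, and 1133 in females, against 5571; the number and the tissue cannot be told apart. The female tissue change of Nqo1 was 0.01 in that fit. Among members higher in males, the animal as a fixed replicate block gave 1 and rats of 11 weeks gave 1, Prdx6 losing its call in both. Among members higher in females, adding 1 before log2, quantile normalization and, chosen after seeing the data, no intensity trend gave 1 each. Without single replicates members lower numbered 6 to 7 in males and 1 to 5 in females, and members higher 1 to 2 in males and 0 to 2 in females; with 1 female olfactory array left, its spread is assumed to be that of the other groups. Of the fixed replicate block's changes among the 47 genes named in males, 3 calls were lost (Prdx6, Msra and Slc5a5) and 2 gained (Hmox1 and Gsr), while a random replicate block of animals gained 1 (Gsr, adjusted p = 0.0492); no other call of these changed. Signs turned only for genes not called: Txnrd1 in males gave -0.06 on the arrays with an integrity number without the covariate, and in females -0.09 under quantile normalization, -0.16 without male respiratory 7 and female respiratory 8, -0.07 as the mean of its probe sets and -0.16 to 0.27 without single replicates. Nfe2l2 in males gave -0.10 on the arrays with an integrity number, -0.01 without those 2 arrays and -0.01 to 0.42 without single replicates. In females 8484 probe sets were called without those 2 arrays, 1977 without female olfactory 6 and 2992 without female olfactory 8. The cause of these changes was not tested. Duox2 is limited by background on 3 male and 1 female olfactory arrays.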
